A study of Drosophila melanogaster with 8 samples.

Results

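Odorant-binding proteins (Obp) are small secreted proteins that were first known from the fluid around olfactory neurons, where they are made by support cells of the antennal sensilla and bind volatile molecules. Members of the same family are also made in taste organs, in the male reproductive glands and elsewhere in the body. The members described here were all genes whose name in the deposited tables starts with Obp followed by a digit, together with lush, an odorant-binding protein gene with its own name, and Os-C, a10 and a5, which encode other small secreted proteins of the antenna. This gave 54 of 17655 genes, 50 of them named Obp. A level of 5 FPKM (fragments per length of transcript and size of library) in any library separated 36 members from 18 below it.

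The 8 RNA libraries came from adults of Canton S, a wild-type strain of Drosophila melanogaster, with 1 library for each diet and sex. Males and females were kept for 7 days on a normal diet (ND), on a high-fat diet (HFD), or on that high-fat diet plus quercetin glucoside (HFD+QG) or epigallocatechin gallate (HFD+EGCG), a plant flavonol glucoside and a tea catechin. All flies then spent 2 h on the standard diet, were collected at an age of 15 days, and were used without wings or legs, so that the taste hairs of those limbs were not sampled while heads and antennae were. The doses are not given in the sources used here, nor is the number of flies behind a library.

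With 1 library a group, a difference between diets within a sex has no replicate check. The p-values rest on how far diet differences disagree between the sexes, mixed with a spread between libraries that could be technical. Depth is unknown because the authors rounded FPKM to whole numbers. A transcript listed at 0 stands for an amount under 0.5 FPKM or a failed estimate. Rounded transcript values were summed per gene, so a listed 0 of a gene with several transcripts can hide more. Obp84a, for example, has 2. No single fold is printed against a listed 0. Counts and medians of differences of log2(FPKM + 1) do include such values. Obp84a, listed at 0 in the male HFD library, enters them in this way. Summed FPKM lay between 885956 and 1000513 per library. Olfactory receptor genes themselves were almost undetected in whole flies. Of 59 genes named Or, 3 were above 0 in each male library and 1 in each female one, and the co-receptor gene Orco was at 0 to 2 FPKM. In these bulk samples, fewer cells of a type and less RNA per cell cannot be told apart.

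The members lay between 0 and 1941 FPKM. In males, 35 reached 5 FPKM and 10 reached 100 FPKM. In females the numbers were 24 and 6. Obp56g, an odorant-binding protein gene of the male ejaculatory bulb that is needed for the mating plug, had the highest level, at 1707 to 1941 FPKM in males. Obp19d and Obp44a followed at 785 to 1025 and 814 to 987 FPKM in males. Just inside the limit of 5 FPKM were Obp50b and Obp84a, whose highest library was at 5, and Obp59a at 6. Just outside were lush at 3, Obp83cd at 2, and Obp46a, Obp50a and Obp58c at 1. The other 13 members were listed at 0 in all 8 libraries, among them the taste genes Obp57d and Obp57e.

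Neighbouring members differed widely in level. Members no more than 10 kb apart formed 9 groups that held 30 of the 54 genes. At X:20415744-20420979, Obp19a peaked at 16 FPKM, Obp19b at 186, Obp19c at 60 and Obp19d at 1025. On arm 2R, Obp57a, Obp57b and Obp57c reached 112, 35 and 124 FPKM while Obp57d and Obp57e, in the next group, were listed at 0. Coordinates are those of the tables and equal those of BDGP6.54 for all 54 members. Some members overlap a gene on the other strand in their exons, among them Os-C with Sfp84E, Obp44a with Pabp2, Obp99c with Gycalpha99B and Obp83ef with Obp83cd. The libraries kept strand, but whether strand was used in counting is not given, and relatives of similar sequence are uncertain as far as the authors' software divided their reads.

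The first question was how the antennal members stood on the high-fat diet. The list of 13 genes abundant in the antenna held Obp83a and Obp83b, neighbours at 3R:5972155-5976817 that are made in the same support cells of pheromone and food odour sensilla, Obp28a of basiconic sensilla, Obp84a of coeloconic sensilla, Obp59a of the humidity-sensing organ, Obp69a, Obp19a, Obp19d, Obp56d, and lush, which is required for a sensitive response to the male pheromone cis-vaccenyl acetate. Beside them stood Os-C, a10, a member of the chemosensory protein family, and a5, a phosphatidylethanolamine-binding protein relative. In males most of these genes were at their lowest on HFD. In females the HFD library lay above the ND library for most of them.

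In males Obp83a was at 23 FPKM with ND food and 7 on HFD, and in females at 4 and 8. Obp83b was at 32 and 14 in males and in females at 6 and 10. Os-C (3R:7978959-7979614) was at 25 and 7 in males and in females at 4 and 7. As deposited, these 3 genes were thus lower on HFD in males and higher on HFD in females. a10 (3L:17023123-17023741) was at 30 and 10 FPKM in males and in females at 5 and 12. Obp19a was at 11 and 4 in males and in females at 2 and 5. Obp28a (2L:7496791-7497365) was at 9 and 6 in males and in females at 6 and 5, the smallest of these differences. The female direction depended on the scale. The median log2 level of 27 head genes (photoreceptor and neuron genes) was 0.94 higher on HFD than on ND in females and 0.0671 higher in males. Centred on that median, the female differences of log2(FPKM + 1) turned to -0.0906 for Obp83a, -0.29 for Obp83b and -0.26 for Os-C, from 0.85, 0.65 and 0.68, and those of a10 and Obp19a came to 0.18 and 0.0614, from 1.12 and 1.00. In males the centred differences of these 5 genes lay from -1.77 (Os-C) to -1.20 (Obp83b), so that for these 5 males alone kept a difference of that size. Obp28a went the other way, with a centred difference of -1.16 in females and -0.58 in males.

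Of the 13 antennal members, 11 had their lowest male value on HFD, an order whose share over all genes was not counted. The exceptions were Obp19d and Obp56d, which had the highest levels of the list. Obp19d, found under the cuticle of smell and taste organs alike, was at 785 and 839 FPKM in males on these diets and at 300 and 438 in females. Obp56d was at 338 and 420 in males and in females at 197 and 319. As deposited, both were therefore higher on HFD in each sex. Per photoreceptor FPKM of the same library both were lower on HFD in each sex, Obp19d at 12.4% (ND) and 9.80% (HFD) in males and in females at 16.8% and 9.21%, and Obp56d at 5.32% and 4.91% in males and in females at 11.01% and 6.71%. Centred on the 27 head genes, the log2 differences between HFD and ND were 0.0287 for Obp19d and 0.25 for Obp56d in males. In females they were -0.39 and -0.25, so the male direction depended on the head scale used. Over the 12 list members at 5 FPKM or more in males the median difference of log2(FPKM + 1) between HFD and ND was -1.07, against 0.08 over all genes at that level. In females the median over 8 members was 0.69, against -0.24 over all genes, and below the head-gene difference of 0.94.

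Across all members at 5 FPKM in males, 9 of 35 were at least 2-fold lower on HFD than on ND and 1 was at least 2-fold higher. Among all 10402 genes at that level, 1.99% were lower and 0.846% higher by that margin. The 9 were Obp19a, Obp83a, Obp83b, Obp84a, Os-C, a10 and a5 of the antennal list, and Obp99b and Obp99d. With a pseudocount of 5 the count of lower members was 5. In females 5 of 24 members were at least 2-fold higher and 4 lower, where 9.47% and 6.38% of 8469 genes were. The 5 were a10, Obp19a, Obp49a, Obp56e and Obp57a. Photoreceptor genes were higher in the same female library, and with libraries centred on head genes the female counts were 0 higher and 8 lower.

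**Figure D1:**
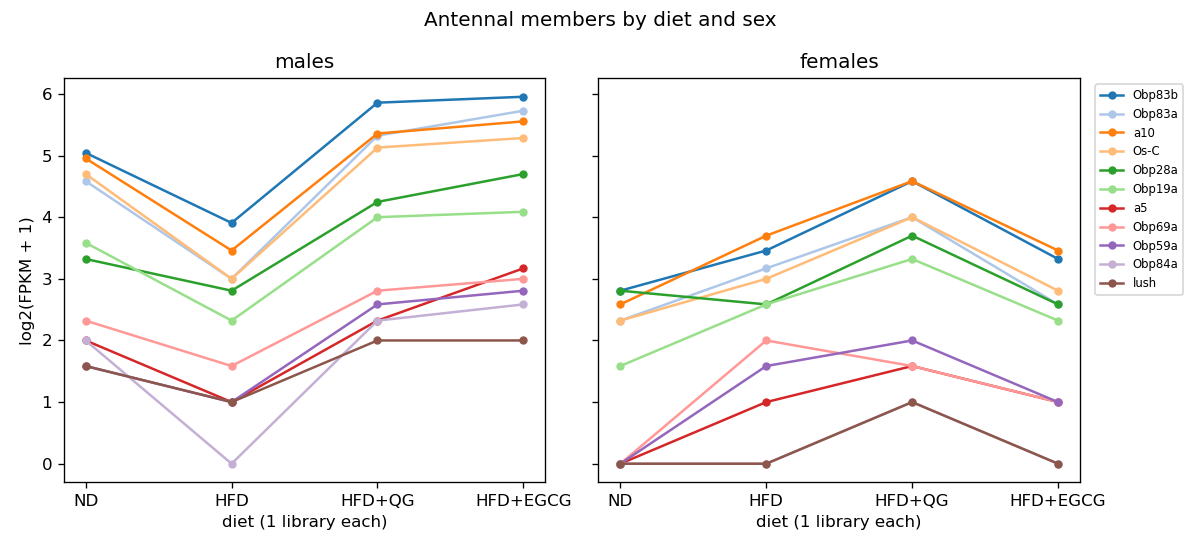
The plot shows log2(FPKM + 1) of 11 antennal members (vertical axis) in each diet library (horizontal axis), males on the left and females on the right, 1 point per library with lines joining a gene's points. In males the HFD points lie lowest for every gene, and in females the HFD+QG points lie highest for every gene but Obp69a.

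The second question was how the same genes stood when either polyphenol was added to the high-fat diet. In males all 13 antennal members were higher with QG and with EGCG than on HFD alone, and all 13 were also higher than on ND. Obp83a was at 39 FPKM with QG and 52 with EGCG, where ND was at 23 and HFD at 7. Obp83b was at 57 and 61, above 32 on ND and 14 on HFD. Both polyphenol libraries of males thus lay above both other male libraries for this gene pair. a10 was at 40 and 46 FPKM, Os-C at 34 and 38, and Obp28a at 18 and 25. Obp19a was at 15 and 16. The EGCG value was the highest of the 4 male values for 10 of the 13. For these counts of the 13 no share over all genes was taken.

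Because the male HFD library was low for these genes, the comparison with it is larger than the comparison with ND. Against HFD the difference of log2(FPKM + 1) over the 12 members at 5 FPKM had a median of 1.63 with QG and 1.97 with EGCG. Over all genes at that level these medians were -0.0169 and -0.0641. Against ND the medians over the 12 were 0.46 and 0.69, with ranges of 0.32 to 1.00 and 0.37 to 1.38. Of the 12, a5, Obp59a, Obp69a and Obp84a reached 5 FPKM in males only in polyphenol libraries. Passing the limit thus favoured a difference in the medians against HFD and against ND alike. The comparisons of QG and of EGCG with HFD share the HFD library, so their likeness is no separate evidence. Least different from HFD were the abundant Obp19d, at 1025 and 1012 FPKM with QG and EGCG, and Obp56d, at 589 and 548.

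In females the QG library alone stood out. The QG value was the highest of the 4 female values for 11 of the 13 antennal members, again with no share over all genes taken. Obp83a was at 15 FPKM with QG and 5 with EGCG, beside 8 on HFD. Obp83b was at 23 and 9, beside 10 on HFD. a10 was at 23 and 10, beside 12 on HFD. The EGCG library of females was thus slightly under the HFD library for these genes, where that of males was far above it. Os-C was at 15 and 6 FPKM, Obp28a at 12 and 5, and Obp19a at 9 and 4. Over the 8 members at 5 FPKM in females the median difference from HFD was 0.86 with QG and -0.17 with EGCG. Neither the difference between the sexes nor that between the 2 compounds was tested.

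The members at low FPKM had much the same order of male libraries, as far as whole numbers show it. a5 was at 3, 1, 4 and 8 FPKM in males on ND, HFD, QG and EGCG, and at 0, 1, 2 and 1 in females. Obp59a was at 2, 1, 5 and 6 in males and in females at 0, 2, 3 and 1. Obp69a, which is known to tune social responses to the pheromone, was at 4, 2, 6 and 7 in males and in females at 0, 3, 2 and 1. In each the male HFD library was the lowest and the male EGCG library the highest. Obp84a was at 3, 0, 4 and 5 in males, and lush at 2, 1, 3 and 3. In females both were at 1 with QG and listed at 0 in the other 3 libraries.

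In counts, 10 of 35 male members were at least 2-fold higher with QG than on HFD, and 10 with EGCG, where 0.673% and 0.961% of 10402 genes were. All 10 belonged to the antennal list in each case. Of these, 4 (a5, Obp59a, Obp69a and Obp84a) reached 5 FPKM only in polyphenol libraries, so that passing the limit favoured a difference, and at a limit of 10 FPKM the count was 6 for each compound. No male member was at least 2-fold lower with QG, where 0.654% of genes were, and with EGCG Obp50b was, where 0.759% were. In females 5 of 24 members were at least 2-fold higher with QG and 1 with EGCG, where 1.11% and 0.779% of 8469 genes were, and Obp19c was lower with each, where 1.09% and 1.06% were. The 5 higher with QG were Obp28a, Obp56a, Obp83b, Obp99b and Os-C. With a pseudocount of 5 none of the 5 passed.

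Head genes did not show the same order of libraries. The 17 photoreceptor genes summed to 6352, 8559, 8351 and 8438 FPKM in males on ND, HFD, QG and EGCG, and to 1789, 4753, 4256 and 4625 in females. The 10 neuron genes summed to 318, 299, 307 and 292 FPKM in males and to 56, 127, 123 and 125 in females. In males the neuron sum was thus lower on HFD than on ND, where the photoreceptor sum was higher. The percentages below are of the photoreceptor sum alone, and none was taken of the neuron sum. All 13 antennal members summed to 1267, 1312, 1839 and 1827 FPKM in males and to 524, 810, 1005 and 943 in females. That sum is mostly Obp19d and Obp56d, and it was lowest on ND and highest with QG in each sex. Relative to the photoreceptor genes of the same library it was 19.9%, 15.3%, 22.0% and 21.7% in males and 29.3%, 17.04%, 23.6% and 20.4% in females, lowest on HFD in each. The 11 members without that pair, left out after their values were seen, summed to 144, 53, 225 and 267 FPKM in males and to 27, 53, 106 and 42 in females. Relative to the photoreceptor genes, the sum of the 11 was 2.27%, 0.619%, 2.69% and 3.16% in males and 1.51%, 1.11%, 2.49% and 0.908% in females. In males the photoreceptor sums of the 3 high-fat libraries lay between 8351 and 8559 FPKM, while the sum of the 11 was at its lowest on HFD and at its highest with EGCG. In females the high ND value of the ratio rests on a photoreceptor sum that was itself low.

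**Figure D2:**
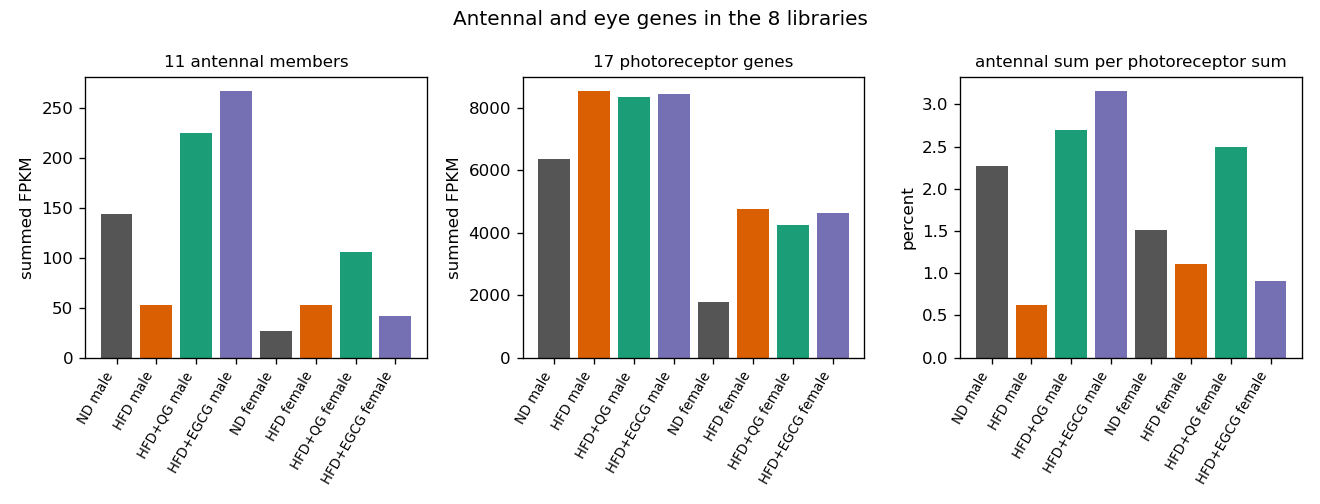
The bars show, for each of the 8 libraries, the summed FPKM of 11 antennal members (left), the summed FPKM of 17 photoreceptor genes (middle) and the first as a percentage of the second (right). Obp19d and Obp56d are left out. Among the male libraries the sum of the 11 is lowest on HFD (53 FPKM) and highest with EGCG (267 FPKM), while the photoreceptor sums of these libraries are 8559 and 8438 FPKM.

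Other olfactory genes were near 0 or are also made outside the antenna. Orco was at 1, 0, 2 and 2 FPKM in males and in females at 0, 1, 1 and 0. Snmp1, a membrane protein of pheromone-sensing neurons that is also made outside the antenna, was at 7, 6, 7 and 7 in males and in females at 2, 5, 4 and 4. Of the co-receptor genes Ir25a and Ir8a were listed at 0 throughout. The chemosensory protein relative EbpIII, of the same family as a10, was at 1824, 1875, 2123 and 2045 FPKM in males and in females at 627, 1273, 1276 and 1369. Phk-3, another member of that family, was at 62, 41, 69 and 64 in males and in females at 30, 133, 122 and 91. In males EbpIII thus differed little between diets, while Phk-3, like a10, was lowest on HFD. Whether the share of antennal tissue differed between libraries was not tested.

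An additive limma model of sex and diet over all 8 libraries passed none of the 33 members tested, and none of 9848 genes, for HFD against ND, QG against HFD or EGCG against HFD (0.0% called at an adjusted p under 0.05 in each). At an unadjusted p under 0.05 it held 1336, 107 and 102 genes, of which 4, 6 and 1 were members, and limma without a trend also passed none, with 1272, 133 and 131. In this model a diet difference that is not alike in both sexes counts as error. For QG against HFD the mean log2 difference of Obp83b was 1.54 (95% interval 0.18 to 2.90, limma adjusted p 1) and that of Obp28a was 1.28 (0.07 to 2.49, limma adjusted p 1). Both genes were higher in 2 of 2 sexes.

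Taste members showed no 2-fold difference in males. Obp49a, which acts in taste hairs where bitter compounds suppress the sweet response, was at 140, 151, 185 and 179 FPKM in males on ND, HFD, QG and EGCG and at 40, 94, 104 and 106 in females. Obp19b, involved in amino acid taste, was at 116, 156, 180 and 186 in males and in females at 26, 35, 47 and 39. As deposited, both were lowest on ND in each sex. Per photoreceptor FPKM, Obp49a was nearly level, at 1.76% to 2.21% in males and 1.98% to 2.44% in females. Obp19b per photoreceptor FPKM was at 1.83%, 1.82%, 2.15% and 2.204% in males and 1.45%, 0.736%, 1.10% and 0.843% in females, so that on this scale the female ND library was its highest. The photoreceptor sum moved with both genes in females, and its part in the difference was not tested.

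Of the 7 seminal fluid members all but Obp56e were far higher in males, with little difference between diets. Obp51a was at 568, 532, 451 and 455 FPKM in males and listed at 0 in all females. Obp22a was at 110, 110, 98 and 99, Obp56f at 67, 61, 56 and 56, and Obp56i at 24, 22, 22 and 21, each listed at 0 in females. Obp56g was at 1828, 1868, 1707 and 1941 in males and in females at 27, 35, 41 and 40, and Obp8a at 11 to 13 and 1 to 2. Apart from Obp56e, no member of this list differed 2-fold between any male libraries. Accessory gland genes that are no odorant-binding proteins summed to 76757, 74211, 59626 and 59755 FPKM in the same males, lower in both polyphenol libraries, as Obp51a and Obp22a were. Their part in these differences was not tested.

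Obp56e, counted with the seminal fluid genes, was higher in females. It was at 12, 21, 41 and 24 FPKM in males on ND, HFD, QG and EGCG and at 21, 65, 70 and 85 in females. The ND library was the lowest in each sex. For HFD against ND its mean log2 difference was 1.17 (95% interval 0.39 to 1.95, limma adjusted p 0.30), higher in 2 of 2 sexes. Obp57a was at 25, 23, 21 and 19 FPKM in males and in females at 50, 112, 95 and 93, so that as deposited ND was the lowest library in females and the highest in males. Per photoreceptor FPKM, Obp57a was highest on ND in both sexes, at 0.394%, 0.269%, 0.251% and 0.225% in males and 2.79%, 2.36%, 2.23% and 2.01% in females. Centred on the 27 head genes, its log2 difference between HFD and ND was -0.18 in males and 0.21 in females.

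Several members outside these lists were highest on ND. Obp99b (3R:29716254-29716896), known from the adult fat body, was at 87, 20, 15 and 11 FPKM in males and in females at 9, 3, 9 and 2. Its neighbour Obp99d was at 11, 3, 3 and 5 in males and at 1 in all females. In males the single ND library stood above each high-fat library for both genes. In females Obp99b was at 9 FPKM on ND and with QG alike. The mean log2 difference of Obp99b for HFD against ND was -1.69 (95% interval -3.13 to -0.26, limma adjusted p 0.34), lower in 2 of 2 sexes. The fat body gene takeout (to) was at 415, 278, 216 and 168 FPKM in males and in females at 88, 57, 69 and 59, with ND highest as well. Of the fat body genes listed, 5 of 5 at 5 FPKM in males and 5 of 6 in females were lower on HFD than on ND. The exception was FASN1, at 108, 153, 155 and 127 FPKM in females and at 267, 152, 236 and 240 in males. Over all genes at that level the median log2 difference was 0.08 in males and -0.24 in females. The share of all genes lower on HFD by any amount was not counted. Yp1, one of the 6 in females, is also counted with the yolk and eggshell genes. The part of fat body genes was not tested.

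Obp99a was at 324 FPKM in females on ND against 78, 123 and 109 on HFD, QG and EGCG, while males were at 68, 95, 87 and 78. Obp19c was at 60 FPKM in females on ND, 8 on HFD, 2 with QG and 1 with EGCG, and at 1 in all males. Both were thus highest in the female ND library. The 13 yolk and eggshell genes listed summed to 41562, 6623, 13321 and 8401 FPKM in the same females, also highest on ND. Against HFD, 11 of these 13 were higher with QG and 2 lower. The 2 lower ones, the eggshell genes Cp36 at 1041, 149, 16 and 0 FPKM and Cp38 at 1517, 236, 27 and 0, were picked out after their values were seen and had the same order of libraries as Obp19c. The part of egg genes in these differences was not tested. Obp56a was at 80, 55, 57 and 58 FPKM in males and in females at 30, 13, 30 and 43, with HFD lowest in females.

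**Figure D3:**
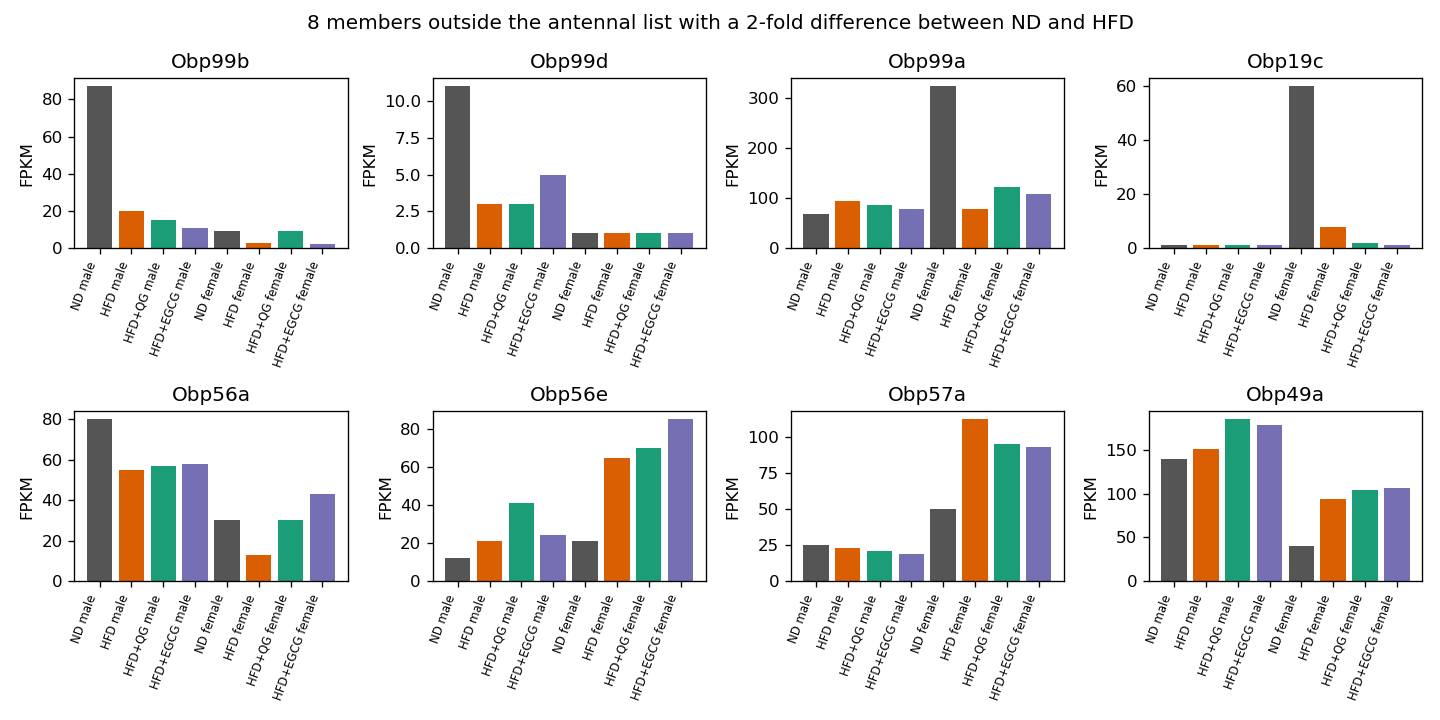
The bars show FPKM of 8 members outside the antennal list in each of the 8 libraries, coloured by diet. Obp99b and Obp99d are highest in males on ND (87 and 11 FPKM), Obp99a and Obp19c in females on ND (324 and 60 FPKM), and Obp56e, Obp57a and Obp49a are lower on ND than on the other diets in females.

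Most of the remaining members at 5 FPKM or more were nearly level between diets. Obp44a was at 814 to 987 FPKM in males and in females at 64 to 95. Obp99c was at 623 to 738 in males and in females at 304 to 429, and Obp57c at 115 to 124 and 48 to 65. Obp18a was at 14 to 16 and 9 to 10, Obp57b at 27 to 35 and 11 to 15, and Obp56h, which is known to affect male mating behaviour, at 15 to 18 and 6 to 10. Obp83ef was at 5 to 7 and 5 to 6 FPKM. Obp83g was at 2, 5, 10 and 5 FPKM in males and in females at 3, 0, 0 and 1, and Obp50b at 2 to 5 in males and a listed 0 in females.

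The third question was how the sexes differed. Most members had lower FPKM in females, and a few had higher. Among the 36 at 5 FPKM, 19 had every male library above every female one and 1, Obp57a, the reverse. Among all 11215 genes at that level 38.3% and 35.2% did. Of the 36, 12 reached 5 FPKM in males alone, so passing the limit favoured a difference. Among the 23 members at 5 FPKM in each sex, 12 had every male library above every female one and 1 the reverse, where 21.5% and 43.4% of 7656 genes did. In limma, with genes at 1 FPKM or more in 4 of 8 libraries, 25 of 39 members were lower and 2 higher in females, where 43.9% and 32.4% of 12826 genes were (76.3% in either direction). Of the 39, Obp51a, Obp22a, Obp56f, Obp56i, Obp46a and Obp50b passed this limit through males alone, so they had to differ. Among the 33 members at 1 FPKM in both sexes 19 were lower and 2 higher, where 28.3% and 40.7% of 9776 genes were.

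Obp44a was lower in females, with a log2 difference of -3.53 (SE 0.12, limma adjusted p 3.305e-05, lower on 4 of 4 diets). Obp19b was lower too, with a log2 difference of -2.09 (SE 0.07, limma adjusted p 2.593e-05). The log2 difference of Obp99b was -2.05 (SE 0.44, limma adjusted p 0.0136). Obp57a and Obp56e were higher in females, by 1.89 (SE 0.26, limma adjusted p 0.00367) and 1.22 (SE 0.23, limma adjusted p 0.00949), each on 4 of 4 diets. Of the 13 antennal members 6 passed, all lower in females, with log2 differences of the list from -1.65 to -0.50. That share was near the 43.9% of all genes but above the 28.3% of genes at 1 FPKM in both sexes. The second set holds all 13.

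Many of these calls depended on the scale between the sexes. Males and females stand in separate tables, and whether these were scaled together is not given. Photoreceptor genes were also lower in females, at 1789 to 4753 FPKM in sum against 6352 to 8559 in males. With libraries centred on the median of 27 head genes, 10 members were lower and 7 higher in females, where 21.0% and 59.2% of all genes were. The 10 include Obp51a, Obp22a, Obp56f, Obp56i and Obp50b, which passed the limit through males alone, so that passing it favoured a difference. No count over genes present in both sexes was made on this scale. Under that centring the antennal members lay between -0.47 and 0.68 and Obp56d alone of them passed, higher in females (limma adjusted p 0.0105), the reverse of its direction as deposited. Obp44a (-2.35), Obp19b (-0.92), Obp57a (3.07) and Obp56e (2.40) kept direction and call.

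**Figure D4:**
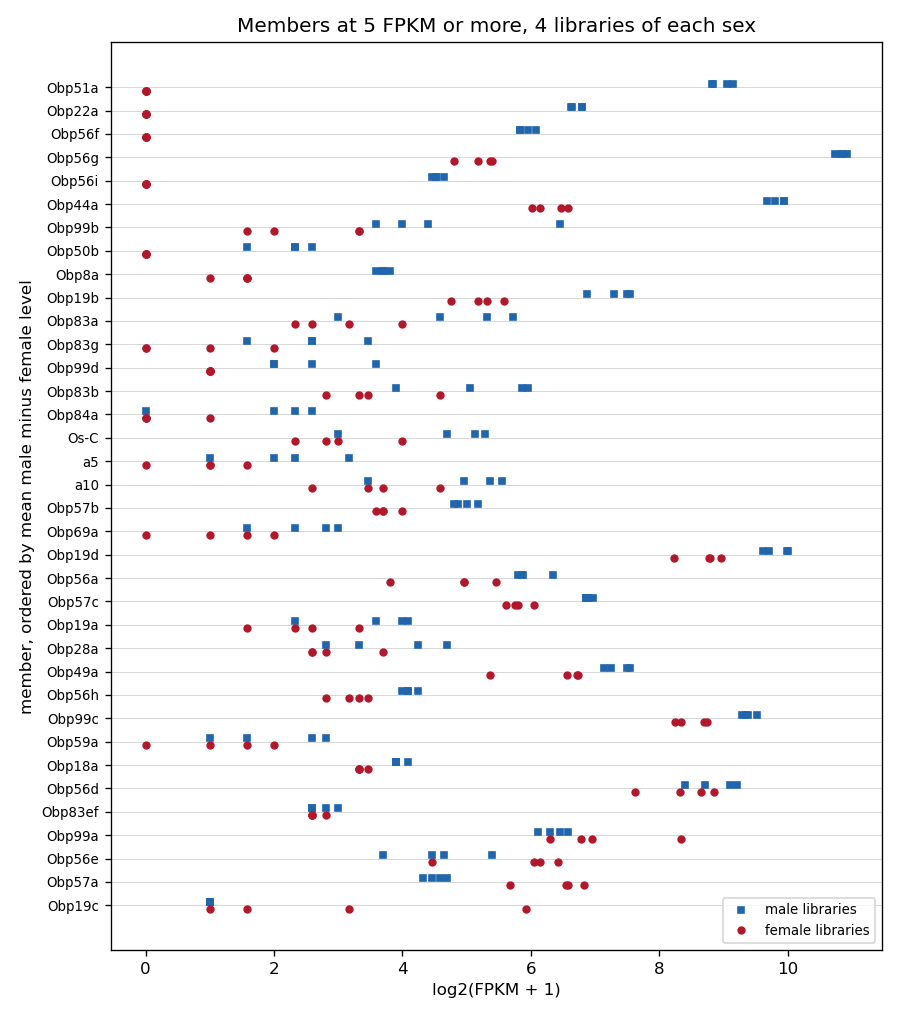
Each row is 1 of the 36 members at 5 FPKM or more, with log2(FPKM + 1) in the 4 male libraries (squares) and the 4 female libraries (circles), ordered by the difference of the sex means. Obp51a, Obp22a, Obp56f and Obp56i are listed at 0 in all females, and Obp57a has all female points above all male points.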

How the data were processed

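RNA of 8 libraries was made with a strand-specific SureSelect kit after Isogen extraction, per the labels' protocols. The deposited values are FPKM per FlyBase transcript, rounded by the authors to whole numbers and therefore handled as a score. Per the submitters' processing notes, the tools were CASAVA 1.8.2, TopHat2 2.1.1 and also Cuffdiff 2.2.1, with roles and parameters not stated. A genome build and the scaling between libraries are not given in the sources used here. Transcript values (34475) were summed per FlyBase gene. Differences are of log2(FPKM + 1), a scale that understates those of low genes. limma 3.58.1 in R 4.3.3 fitted sex and diet to all genes (trended prior, Benjamini-Hochberg adjustment, 3 residual degrees of freedom), using genes at 1 FPKM in a library of each sex (diet) or in 4 of 8 libraries (sex); it was checked on simulated data. All members at 5 FPKM are named, and from other lists up to 3 genes with the highest mean. Orco, Ir25a, Ir8a, Cp36 and Cp38 were named beside them after their values were seen. Cyp304a1, the remaining gene of its list, was named as well. The antennal, taste, seminal fluid and head lists, like the members, were chosen with earlier results of these data known. No sequence was used here. Alternatives are given in the closing section.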

Additional observations from a re-analysis of the deposited data

Results flagged for a closer look

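Differences of opposite sign in males and females, at least 2-fold in a sex, were found for 8 members. The share of all genes with such differences was not counted. This contrast of males with females was not tested, and each side rests on 1 library per diet. For HFD against ND, the female minus the male log2 difference was 2.61 for a10, 2.43 for Obp83a, 2.38 for Os-C, 2.26 for Obp19a and 1.79 for Obp83b, all lower in males and higher in females as deposited, 1.26 for Obp57a (-0.12 in males, 1.15 in females), and -2.52 for Obp99a (0.48 in males, -2.04 in females). For EGCG against HFD it was -3.31 for Obp83a, -2.48 for Os-C, -2.34 for a10, -2.18 for Obp83b and -2.03 for Obp19a, all higher in males and slightly lower in females. The female sign rests on neighbouring whole numbers for Os-C (7 FPKM on HFD, 6 with EGCG), Obp83b (10 and 9) and Obp19a (5 and 4). For QG against HFD the female minus the male log2 difference was 1.71 for Obp99b (-0.39 in males, 1.32 in females). The antennal genes among these use the same male HFD library in both comparisons, and its photoreceptor sum (8559 FPKM) was near that of the other male high-fat libraries (8351 and 8438). In females that sum was 1789 FPKM on ND and 4753 on HFD. Centred on head genes, the female differences for HFD against ND were 0.18 for a10, 0.0614 for Obp19a, 0.21 for Obp57a, -0.0906 for Obp83a, -0.29 for Obp83b and -0.26 for Os-C, so that the last 3 were lower on HFD in both sexes. The part of the head-gene difference in these values was not tested.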

How the results depend on the processing

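Depth is unknown, and whole-number FPKM limit what can be said of members under about 10 FPKM. Counts are of members at least 2-fold different unless limma is named. With a pseudocount of 5, males had 0 higher and 5 lower for HFD against ND, 6 higher with QG and 0 lower with EGCG, and females had 3 higher and 2 lower for HFD against ND and 0 higher and 0 lower with QG. Rescaling to a common sum gave 0 higher for male HFD against ND and 0 lower for male EGCG, and centring on head genes gave the same 0 and 0 in males and 0 higher and 8 lower for female HFD against ND. The most abundant transcript in place of the gene gave 2 lower for female EGCG. At 1 FPKM there were 2 higher for male HFD against ND, 2 lower for male EGCG, 8 higher for female HFD against ND, and 2 higher and 3 lower for female EGCG. At 10 FPKM there were 6 higher for male QG, and 6 higher and 0 lower for male EGCG. limma for HFD against ND passed 0 to 5 members when each library was left out. The 5, without the male ND library, were Obp8a, Obp56d, Obp57a and Obp49a (higher) and Obp99a (lower), in a fit where 39.0% of all genes passed and the female library alone stands for ND and is taken to vary as other libraries do. QG and EGCG against HFD passed 0 members in every fit. limma passed 21 to 32 members between the sexes when each library was left out, and 17 when centred on head genes. That centring reversed the female minus male log2 difference of Obp19d (0.0397), Obp18a (0.58), Obp56a (1e-04), Obp56d (0.68), Obp56h (0.26), Obp57c (0.0925), Obp99c (0.30), Obp83ef (1.07) and Obp49a (0.17); the cause was not tested. The limma fit of sex and diet compares the sexes within diets and the diets within sexes; no paired analysis was possible beyond that, because the labels give no replicate numbers.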

Other observations

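Among 7656 genes at 5 FPKM or more in both sexes, the genes outside the members whose profile over the 8 libraries was nearest to the mean of 8 antennal members, by root mean square difference of log2(FPKM + 1) centred within each sex, included GstD2, a glutathione S-transferase (0.26), Uro, the urate oxidase of the Malpighian tubules (0.34), and the immune-induced peptide genes IM2 and IM3 (0.37 and 0.38), beside a median of 0.63 over all genes. GstD2 was at 13, 6, 17 and 21 FPKM in males on ND, HFD, QG and EGCG and at 13, 31, 32 and 31 in females. It shared the low male HFD value, but in females it was level across the 3 high-fat diets, where Obp83a was at 8, 15 and 5. IM2 was at 293, 133, 236 and 259 in males and in females at 153, 302, 316 and 298, also level on those diets. Obp19a (0.13), Obp83b (0.16), a10 (0.21) and Os-C (0.23), which belong to the mean itself, lay nearer than GstD2.

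The esterase gene Est-6, made in the antenna and in the male ejaculatory duct, was at 590, 472, 321 and 312 FPKM in males and in females at 60, 56, 63 and 64. In males it was lower with either polyphenol than on HFD. Of the other antennal enzyme genes antdh, at 18, 20, 29 and 23 FPKM in males, and Jhedup, at 1, 0, 1 and 2, were higher with either polyphenol than on HFD, as the antennal members were, and Cyp304a1 was listed at 0 throughout.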
